A study of Mus musculus with 6 samples.

Results

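The genes described here are 9 genes of the embryonic red cell: the globin genes Hba-x, Hbb-bh1 and Hbb-y, the membrane transporter gene Slc4a1, the nuclear protein gene Hemgn, the heme synthesis gene Alas2, the transcription factor genes Klf1 and Gata1, and the erythropoietin receptor gene Epor. Their probe sets were taken by symbol, as those of the array annotated to exactly 1 gene symbol on that list. The list itself was chosen with earlier results of these data known. Counts over it are therefore a description and not a test. All 9 genes were on the array, with 15 of the 22626 probe sets tested. The mutant mouse embryos were homozygous for the Dll3 allele tm1Rbe, also written Dll3neo/neo, and the wild-type embryos were Dll3+/+. Both groups were c57bl/6 by their labels, were collected at 9.5 dpc (days post coitum) and carried no other named allele or treatment. Dll3 encodes a Notch ligand of somite formation. From each group 3 pools of somite-level trunk tissue were profiled, each pool on an Affymetrix MOE430A array of its own. The trunk was cut at the otic placode and at the front of the presomitic mesoderm, and heart and endoderm were taken off. How many embryos made up a pool, and of which sex, is not given in the sources used.

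Primitive red cells form in the blood islands of the yolk sac and enter the embryo once the heart beats, where they mature in the circulation. They carry embryonic hemoglobin, built from alpha-like chains that include the product of Hba-x and from the beta-like products of Hbb-bh1 and Hbb-y. GATA1 and KLF1 are transcription factors needed for the red cell program, which includes the globins, heme synthesis and the red cell membrane. Trunk tissue of this stage holds blood vessels, so red cells are one of the cell types that such a dissection can contain.

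The deposited values are ratios of each pool to a reference of the same probe set, so they compare pools for 1 gene and hold no level between genes. Over the 6 pools 93.4% of rows of the table had a median within 0.0015 of 1, and so did all 15 erythroid probe sets. In such rows a ratio above or below 1 places a pool against the middle of these same 6 pools. Whether a probe set lay above background, and so whether red cell transcripts were detected at all, cannot be read from ratios. Dll3 itself, with 1 probe set, had ratios of 0.996, 1.013 and 0.941 in the mutant pools and of 0.96, 1.004 and 1.028 in the wild-type pools. Since the place of this probe set in relation to the neo insertion is unknown here, these ratios are no check of the genotype labels. Sex-linked transcripts differed between pools: the sex score, which is the log2 ratio of Xist minus the mean of the Y-linked genes Eif2s3y, Kdm5d and Uty, was 0.04, 0.81 and 0.73 in mutant pools 1, 2 and 3 and -0.08, -1.48 and -1.73 in wild-type pools 1, 2 and 3. Every mutant pool thus scored above every wild-type pool, and the score is given below beside the results it moves with.

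The promoters of the erythroid genes are shown because GATA1 binds GATA sites and both it and its known targets are among the genes measured. RefSeq (build GRCm38.p6) gave an entry for 7 of the 9 genes, and none was used for Hbb-bh1 and Slc4a1. Of these, 6 are printed as the 150 bases before the transcription start, 5′ to 3′ in the direction of the gene. Capitals mark GATAA on either strand, which reads TTATC where it lies on the other strand.
Hba-x (chr11:32276450-32276599, plus strand): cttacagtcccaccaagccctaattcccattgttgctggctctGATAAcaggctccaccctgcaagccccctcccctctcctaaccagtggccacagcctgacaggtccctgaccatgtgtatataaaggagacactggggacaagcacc
Hemgn (chr4:46404184-46404333, minus strand): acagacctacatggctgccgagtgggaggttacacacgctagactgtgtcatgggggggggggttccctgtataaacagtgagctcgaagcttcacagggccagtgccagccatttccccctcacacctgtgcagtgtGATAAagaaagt
Alas2 (chrX:150547267-150547416, plus strand): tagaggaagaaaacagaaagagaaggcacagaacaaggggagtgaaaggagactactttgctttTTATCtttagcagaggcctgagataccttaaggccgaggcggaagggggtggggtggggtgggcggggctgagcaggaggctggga
Klf1 (chr8:84901832-84901981, plus strand): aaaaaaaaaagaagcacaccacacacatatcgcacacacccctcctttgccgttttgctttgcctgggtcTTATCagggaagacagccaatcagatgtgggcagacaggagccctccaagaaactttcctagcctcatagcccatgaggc
Epor (chr9:21963577-21963726, minus strand): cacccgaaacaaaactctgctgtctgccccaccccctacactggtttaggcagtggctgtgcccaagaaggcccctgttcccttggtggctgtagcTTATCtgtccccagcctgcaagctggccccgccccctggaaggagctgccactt
Gata1 (chrX:7967911-7968060, minus strand): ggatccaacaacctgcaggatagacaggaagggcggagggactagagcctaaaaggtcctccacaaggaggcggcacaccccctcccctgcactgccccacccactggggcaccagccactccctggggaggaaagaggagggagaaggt
In the 250 bases before the start, GATAA was found in the promoters of 6 of 7 genes (Hba-x, Hbb-y, Hemgn, Alas2, Klf1 and Epor), against 22.6% of 32851 RefSeq promoter windows of the same length. In Hbb-y it began 162 bases before the start, outside the stretch of the length printed for the others. The letters CCNCNCCC, a CACCC-like pattern of the kind that KLF factors bind, were found on either strand in 5 of 7 genes (Hba-x, Hemgn, Alas2, Gata1 and Epor), against 45.9% of all windows. The run of G in Hemgn matches this pattern at several overlapping places, and GATAA and CCNCNCCC share no letters in any of these windows. The letters CCAAT were in 2 of the 7 (Hbb-y and Klf1), against 33.8% of windows, and TATAA in 3 (Hba-x, Hemgn and Alas2), against 22.8%. These matches describe letters only.

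The study set mutant against wild-type pools to find transcripts of the segmented trunk altered by the Dll3 mutation. Of the 9 erythroid genes, 8 had a higher mean log2 ratio in the mutant pools and 1, Epor, a lower one, while 51.9% of all 12393 genes were higher. The median log2 difference of the 9 genes was 0.23, against 0.0035 over all genes. In 5 of the 9 genes (Hba-x, Hbb-bh1, Slc4a1, Hemgn and Klf1) every mutant pool lay above every wild-type pool, which held for 3.98% of all genes. No gene passed the threshold: in limma with Benjamini-Hochberg adjustment over all genes, the adjusted p was 0.9997 for each of the 9, and 0% of all genes passed. At an unadjusted p under 0.05 the same 5 genes were higher in the mutant pools, as were 1.31% of all genes. Once the sex score entered the fit as a covariate, the median of the 9 genes was 0.03 and 6 of 9 were higher, against 49.6% of all genes. The sex score and genotype run together over these 6 pools, so their parts in the differences cannot be told apart. Values fitted beside the sex score are given without an SE. Whether they differ from the main values, or between genes, was not tested. In bulk tissue, a different number of red cells and a different amount of RNA per cell also cannot be told apart.

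**Figure D1:**
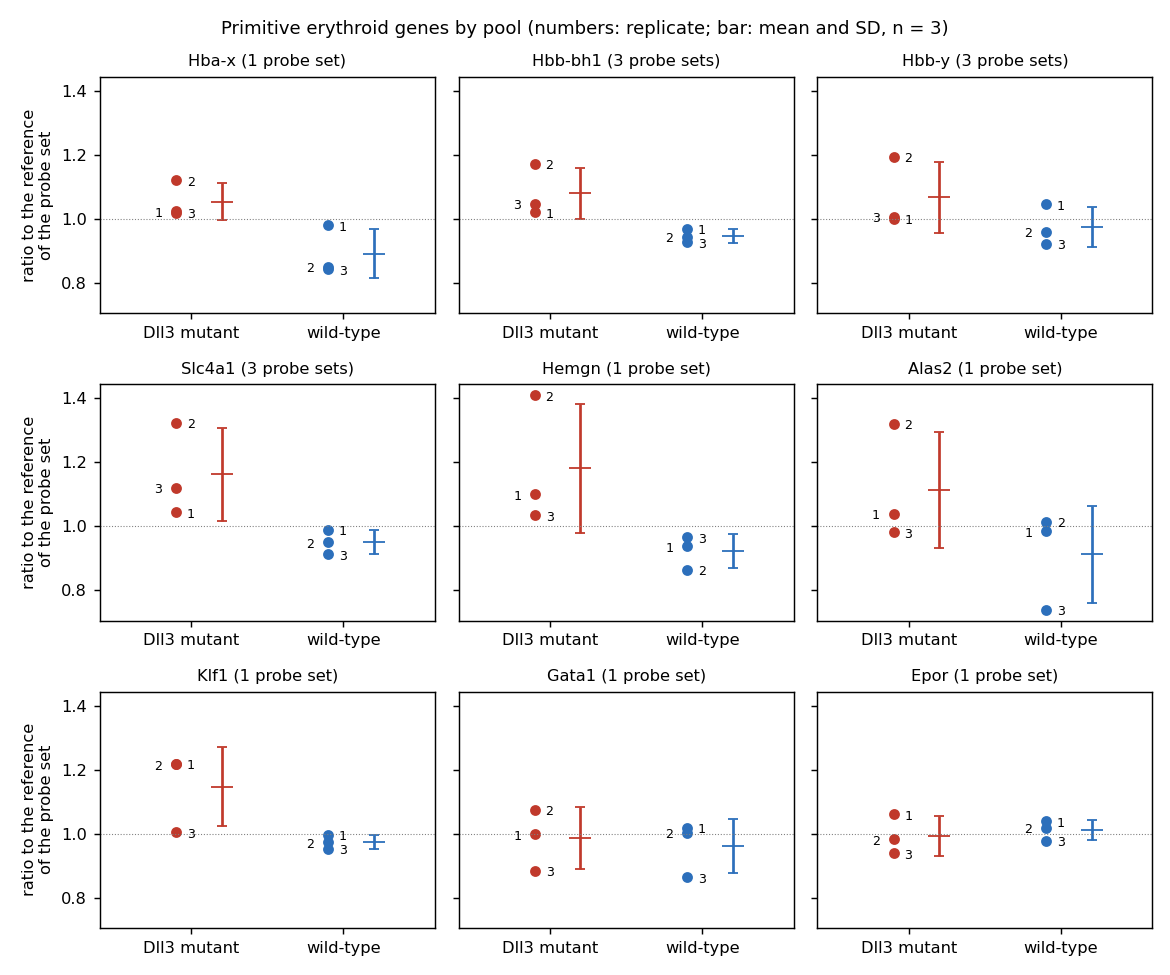
Ratio of each of the 9 erythroid genes in each pool (vertical axis, ratio to the reference of the probe set, mean over its probe sets on the log2 scale), Dll3 mutant left and wild-type right. Points are pools with their replicate number, and bars are the mean and SD of 3 pools. Mutant pool 2 is the highest point in 7 genes, and the groups overlap in Hbb-y, Alas2, Gata1 and Epor.

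Among the globins, the alpha-like embryonic gene Hba-x had ratios of 1.025, 1.121 and 1.019 in mutant pools 1, 2 and 3, against 0.981, 0.851 and 0.844 in wild-type pools 1, 2 and 3. Wild-type pool 1 came close to mutant pools 1 and 3, and the groups did not overlap. The log2 difference was 0.24, with an SE of 0.086 and a 95% interval of 0.05 to 0.43. Fitted beside the sex score it was 0.03.

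Hbb-bh1, the beta-like globin gene that is prominent in early primitive red cells, had 3 probe sets. Their mean ratio was 1.021, 1.172 and 1.048 in the mutant pools and 0.97, 0.944 and 0.927 in the wild-type pools. Of the 15 erythroid probe sets 14 had a log2 difference above 0 (51.5% of all probe sets did) and none passed the adjusted threshold (0% of all probe sets did). All 3 probe sets of Hbb-bh1 separated the groups, with log2 differences of 0.24 (SE 0.098), 0.17 (SE 0.095) and 0.15 (SE 0.089). Across all probe sets 4.07% had every mutant pool above every wild-type pool. The gene value was 0.19 (SE 0.079), and 0.09 with the sex score as a covariate.

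Hbb-y, the other embryonic beta-like gene, gave a less even picture. Its mean ratio over 3 probe sets was 1.002, 1.194 and 1.007 in the mutant pools and 1.046, 0.96 and 0.924 in the wild-type pools. Only mutant pool 2 lay above all wild-type pools, and wild-type pool 1 was the second highest of the 6. The log2 difference of 0.13 (SE 0.092) has a 95% interval of -0.08 to 0.33 that holds both 0 and the value of Hbb-bh1. The 3 probe sets gave 0.05, 0.12 and 0.21, each with overlapping groups. Without mutant pool 2 the gene value was 0.04, and with the sex score as a covariate it was -0.07.

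The ends of the probe set names bear on the globins, because the array maker marks probe sets whose probes may also match other transcripts with x. That mark is on 1 of the 3 probe sets of Hbb-bh1 and on 2 of the 3 of Hbb-y, and these beta-like genes resemble each other in sequence. The values of Hbb-bh1 and Hbb-y may therefore share signal. With the marked probe sets left out, the remaining probe set of Hbb-y gave 0.21, at ratios of 0.926, 1.263 and 1.124 in the mutant pools and 1.074, 0.892 and 0.89 in the wild-type pools. In it, mutant pool 1 lay below wild-type pool 1.

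Of the 12 genes in the list of other globins, 3 adult-type genes had a probe set of their own, with values near 0. Hba-a1 had a log2 difference of -0.02 (SE 0.108), Hba-a2 of -0.08 (SE 0.091) and Hbb-b2 of 0.06 (SE 0.08), and the groups overlapped in all 3. In mutant pool 2, the pool with the highest embryonic globin values, Hba-a1 stood at 0.888 and Hba-a2 at 0.905, the lowest ratio of the 6 pools in both genes. A further 4 probe sets are annotated to several adult globin genes each and were not assigned to a gene. The adult globins are therefore covered only in part here.

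**Figure D2:**
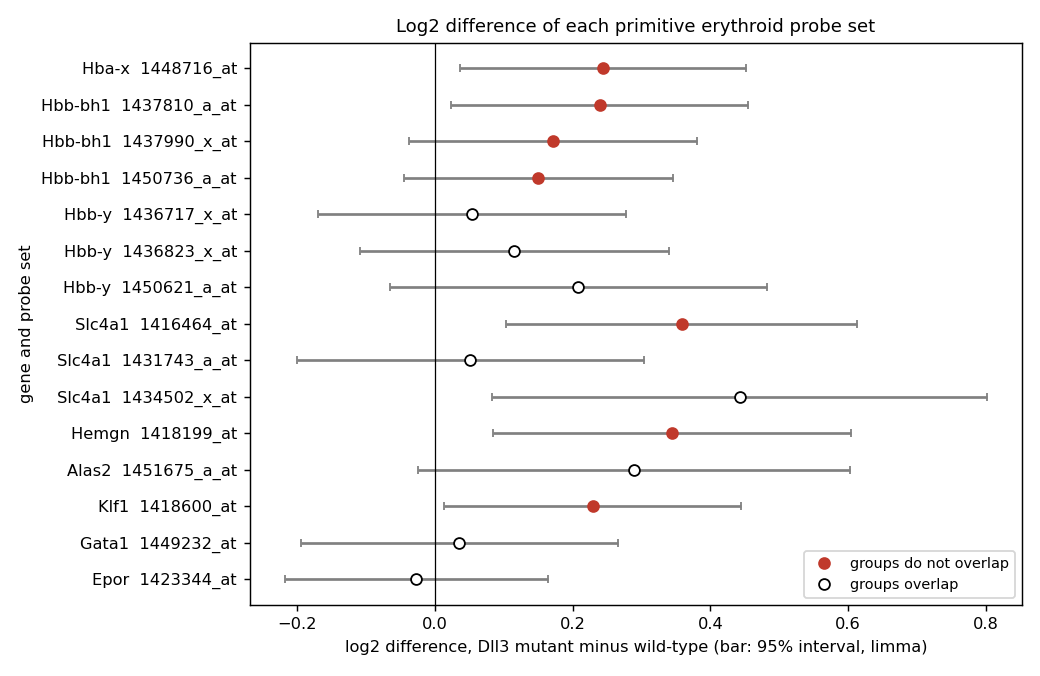
Log2 difference (horizontal axis, Dll3 mutant minus wild-type) of each of the 15 erythroid probe sets, with its 95% interval from limma. Filled points are probe sets in which every mutant pool lay above every wild-type pool, 7 of 15, against 4.07% of all probe sets. Of the 15 values 14 are above 0, against 51.5% of all probe sets, and the probe sets of Slc4a1 run from 0.05 to 0.44.

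Slc4a1 encodes the anion exchanger of the red cell membrane, known as band 3. Its gene value was 1.044, 1.323 and 1.12 in the mutant pools and 0.989, 0.95 and 0.912 in the wild-type pools, with no overlap and a log2 difference of 0.28 (SE 0.095). Its 3 probe sets did not all move together. Probe set 1416464_at had ratios of 1.009, 1.34 and 1.265 in the mutant pools and 0.991, 0.954 and 0.859 in the wild-type pools, a log2 difference of 0.36 (SE 0.116). Probe set 1434502_x_at had the largest value of all 15, 0.44 (SE 0.163), and rested most on mutant pool 2, at a ratio of 1.694 against 0.991 and 1.191 in mutant pools 1 and 3 and 0.86, 0.918 and 1.009 in the wild-type pools. Probe set 1431743_a_at stood at 1.139, 1.02 and 0.933 in the mutant pools and 1.135, 0.98 and 0.876 in the wild-type pools, a log2 difference of 0.05 (SE 0.115) with overlapping groups. Which part of the Slc4a1 transcript each probe set reads was not known. The gene value was 0.19 without mutant pool 2 and 0.10 with the sex score as a covariate. It was 0.20 with probe set 1434502_x_at, which carries the x mark, left out.

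Hemgn encodes hemogen, a nuclear protein of blood-forming cells. It had the largest log2 difference of the 9 genes, 0.34 (SE 0.113). Its ratios were 1.1, 1.41 and 1.034 in the mutant pools and 0.938, 0.865 and 0.966 in the wild-type pools. The groups did not overlap, although mutant pool 3 and wild-type pool 3 lay close together. Without mutant pool 2 the difference was 0.21, and with the sex score as a covariate it was 0.26.

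Alas2, on the X chromosome, encodes the erythroid form of the first enzyme of heme synthesis. Its ratios were 1.04, 1.321 and 0.981 in the mutant pools and 0.985, 1.015 and 0.739 in the wild-type pools. A single pool in each group stood apart, mutant pool 2 high and wild-type pool 3 low, and the other 4 pools lay between 0.981 and 1.04. The log2 difference was 0.29, with an SE of 0.14 and a 95% interval of -0.02 to 0.60. It was 0.16 without mutant pool 2, 0.14 without wild-type pool 3 and 0.01 in the fit that held the sex score.

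The 2 transcription factors had unlike values, a difference that was not itself tested. Klf1, which activates globin and other late red cell genes, had ratios of 1.218, 1.217 and 1.004 in the mutant pools and 0.996, 0.973 and 0.953 in the wild-type pools. Mutant pools 1 and 2 were high to the same degree, mutant pool 3 lay just above the wild-type range, and the log2 difference was 0.23 (SE 0.09). Klf1 was one of the genes whose value kept its size with the sex score as a covariate, at 0.23. Gata1, on the X chromosome, had ratios of 0.998, 1.075 and 0.884 in the mutant pools and 1.018, 1.002 and 0.863 in the wild-type pools. The groups overlapped, with pool 3 lowest in both, and the log2 difference was 0.04, with an SE of 0.098 and a 95% interval of -0.18 to 0.25. Its sign turned without mutant pool 2 (-0.03), without wild-type pool 3 (-0.04) and with the sex score as a covariate (-0.10).

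Epor, the receptor through which erythropoietin sustains red cell precursors, was the one gene with a lower mean in the mutant pools. Its ratios were 1.06, 0.982 and 0.938 in the mutant pools and 1.038, 1.018 and 0.977 in the wild-type pools. The groups overlapped over nearly their whole range, and the log2 difference was -0.03, with an SE of 0.077 and a 95% interval of -0.20 to 0.14. That interval leaves out the point value of Hba-x, Hbb-bh1, Slc4a1, Hemgn, Alas2 and Klf1. The 95% interval of each of these genes overlaps that of Epor. A difference between Epor and these genes was not tested.

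Pool by pool, mutant pool 2 was the highest of the 6 in 7 of the 9 genes, all but Klf1 and Epor, which were highest in mutant pool 1. Among all genes, mutant pool 2 was the highest in 13.9%. Wild-type pool 3 was the lowest of the 6 in 7 of the 9 genes, all but Hemgn and Epor, against 18.8% of all genes. The mean log2 ratio over the 9 genes was 0.08, 0.26 and 0.003 in mutant pools 1, 2 and 3 and -0.01, -0.07 and -0.16 in wild-type pools 1, 2 and 3. Mutant pool 3 and wild-type pool 1 thus differed by 0.01, and mutant pool 2 and wild-type pool 3 lay farthest from these. These last 2 pools were also those with the highest and the lowest sex score.

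Taken by replicate number, mutant minus wild-type was above 0 in 7 of 9 genes for pools numbered 1, in 8 of 9 for those numbered 2 and in 8 of 9 for those numbered 3, with medians of 0.07, 0.32 and 0.12. For all genes the share above 0 was 47.4%, 54.3% and 50.1%. The exceptions were Hbb-y and Gata1 at number 1 and Epor at numbers 2 and 3. Whether equal numbers mark pairs of pools was not known. Leaving out mutant pool 2 gave a median of 0.16 with 7 of 9 genes higher, against 51.2% of all genes. Leaving out wild-type pool 3 gave 0.17 with 7 of 9, against 53.5%.

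As a description over 6 pools from 2 genotypes, each gene was set beside the mean of the other 8. The genes were read on the same arrays and share pool effects. A difference between genotypes common to the genes also enters r. Pearson's r was 0.934 for Hbb-bh1, 0.924 for Hbb-y, 0.908 for Slc4a1, 0.893 for Hba-x, 0.881 for Alas2, 0.845 for Hemgn and 0.839 for Klf1. It was 0.669 for Gata1 and -0.001 for Epor. Between single probe sets of 1 gene, r was 0.634 to 0.861 for Hbb-bh1, 0.502 to 0.592 for Hbb-y and -0.198 to 0.82 for Slc4a1.

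Outside the 9 genes, the pattern over pools most like their mean was that of Cnn1, which encodes a calponin of smooth muscle (r = 0.988), Actc1, the actin of heart and early skeletal muscle (0.985), Spag1 (0.976), the zinc finger gene Zfp423 (0.973), the metallothionein gene Mt1 (0.97) and Cotl1, a coactosin-like actin-binding protein gene (0.958). They were picked as the 6 highest among 6721 genes with an SD of at least 0.1 over the 6 pools, of which 7 had an r above 0.95. Actc1 had ratios of 1.082, 1.571 and 0.994 in the mutant pools and 1.006, 0.92 and 0.832 in the wild-type pools, with the same highest and lowest pool as most of the erythroid genes. With 6 pools, a high r is easily reached by some gene of so many.

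Other genes of the red cell were followed through 5 lists, of which 83 of 106 genes were measured. None passed the adjusted threshold in limma. Of the 83 genes 55 were higher in the mutant pools and 28 lower, with a median of 0.04, against 51.9% and 0.0035 over all genes. Groups did not overlap in 10 genes with the mutant pools higher and in 2 with the mutant pools lower, where 3.98% and 3.49% of all genes did so. The count of higher genes was 47 of 83 without wild-type pool 3 and with the sex score as a covariate, and 55 of 83 without mutant pool 2. Of all genes 53.5%, 49.6% and 51.2% were higher in these 3 settings.

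In the list of heme synthesis and iron genes 16 of 18 were higher in the mutant pools (median 0.08), against 51.9% of all genes. Slc25a37, mitoferrin, which carries iron into the mitochondria of red cell precursors, had ratios of 1.011, 1.359 and 1.183 in the mutant pools and 0.989, 0.921 and 0.893 in the wild-type pools. Its log2 difference was 0.33 (SE 0.106), the largest of the list, and its groups did not overlap. The biliverdin reductase gene Blvrb was at 0.23 (SE 0.085), with ratios of 1.065, 1.192 and 1.021 in the mutant pools and 0.88, 0.979 and 0.937 in the wild-type pools. Urod, uroporphyrinogen decarboxylase of the heme pathway, was at 0.13 (SE 0.074). Every mutant pool lay above every wild-type pool in 5 of 18, against 3.98% of all genes. These were Slc25a37, Blvrb, Urod, the ferrochelatase gene Fech (0.13, SE 0.081) and the mitochondrial transporter gene Abcb10 (0.12, SE 0.076). Fech and Abcb10 were named after their values were seen. Slc25a38, the mitochondrial glycine carrier, was lowest at -0.09 (SE 0.094). The count of higher genes was 15 of 18 without mutant pool 2 or without wild-type pool 3, and 13 of 18 with the sex score as a covariate.

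**Figure D3:**
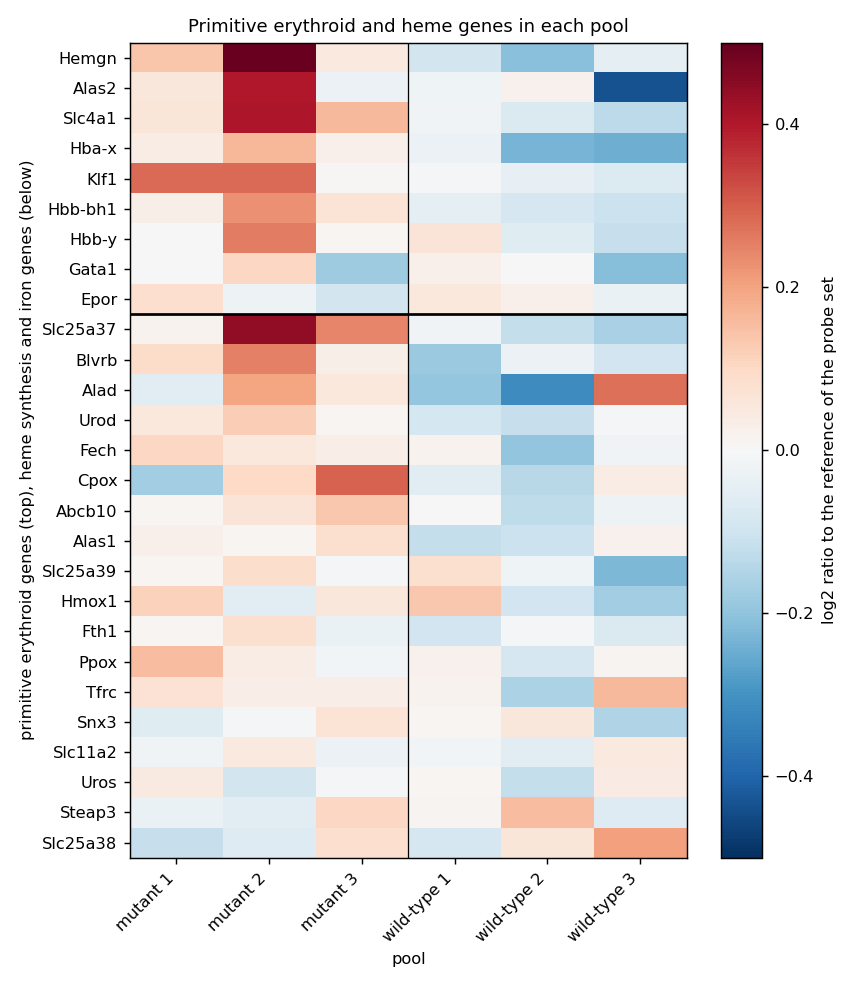
Log2 ratio of the 9 erythroid genes (top) and the 18 measured heme synthesis and iron genes (below the line) in each pool, mutant pools left of the line and wild-type pools right. Rows run from the largest to the smallest log2 difference within each block. Red is above the reference of the probe set and blue below it. The column of mutant pool 2 is red for most genes of the top block, and wild-type pool 3 is blue for all 9.

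Genes of the red cell membrane and cytoplasm were near the background: 17 of 28 were higher (median 0.02). Car2, a carbonic anhydrase that red cells share with other tissues, was highest at 0.29 (SE 0.09), with ratios of 1.021, 1.122 and 1.079 in the mutant pools and 0.865, 0.796 and 0.979 in the wild-type pools. The membrane skeleton gene Dmtn was at 0.25 (SE 0.109) with overlapping groups, and the blood group gene Rhd at 0.13 (SE 0.084). Tspo2, an erythroid relative of the mitochondrial translocator protein, was lowest at -0.15 (SE 0.107). Ratios of Tspo2 were 1.099, 0.866 and 0.827 in the mutant pools and 0.991, 1.009 and 1.08 in the wild-type pools.

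Of the erythroid transcription factors and cofactors 16 of 25 were higher, with a median of 0.03. Mafg, a small Maf partner of the erythroid factor NFE2, was at 0.16 (SE 0.076) and Gfi1b, a repressor of red cell and platelet precursors, at 0.16 (SE 0.086), both without overlap. Mafk was at 0.11 (SE 0.074), and Klf2 was lowest at -0.10 (SE 0.098). In the list of erythropoietin and Kit signalling 5 of 9 were higher. Cish, a feedback inhibitor of cytokine receptors, was at -0.17 (SE 0.083) and the kinase gene Pim1 at 0.12 (SE 0.086). Stat5a, which carries the signal of the erythropoietin receptor, was at -0.15 (SE 0.075), with no overlap in the mean of its 2 probe sets. Each probe set of Stat5a alone had overlapping groups, at -0.125 and -0.165. The probe sets of Pim1 disagreed in sign, at 0.28 and -0.03.

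Markers of other cell types that such tissue can hold gave the following values beside the erythroid ones. Over all genes 51.9% were higher in the mutant pools. The gene named from each list is the one with the largest difference in either direction, and does not stand for its list. Endothelial markers were higher in 16 of 22 genes (median 0.05), with list means of -0.05 to 0.06 in the mutant pools and -0.05 to -0.03 in the wild-type pools, and Cd34 at 0.20 (SE 0.093). White cell markers were higher in 6 of 14 genes, with means of -0.09 to 0.05 in the mutant pools and -0.11 to 0.03 in the wild-type pools, and Ptprc, the pan-leukocyte CD45 gene, at -0.17 (SE 0.091). Megakaryocyte and platelet markers were higher in 5 of 9 genes, with means of -0.02 to 0.01 in the mutant pools and -0.06 to 0.03 in the wild-type pools. Among them the platelet chemokine gene Ppbp had ratios of 1.121, 1.131 and 1.031 in the mutant pools and 0.836, 0.969 and 0.819 in the wild-type pools, a log2 difference of 0.33 (SE 0.087) with no overlap. Pf4 was the lowest of that list, at -0.15.

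Markers of yolk sac and gut endoderm were higher in 8 of 18 genes, with means of -0.09 to 0.12 in the mutant pools and -0.08 to 0.09 in the wild-type pools, and the retinol carrier gene Rbp4 at 0.37 (SE 0.122). Heart markers were higher in 9 of 14 genes, with means of -0.02 to 0.02 in the mutant pools and -0.08 to 0.03 in the wild-type pools, and the cardiac troponin gene Tnnt2 at 0.29 (SE 0.1). Neural tube markers were higher in 8 of 11 genes, with means of -0.11 to 0.12 in the mutant pools and -0.10 to 0.07 in the wild-type pools, and Fabp7 at 0.27 (SE 0.158), highest in mutant pool 2. Somite markers were higher in 3 of 13 genes, with means of -0.20 to 0.05 in the mutant pools and 0.02 to 0.10 in the wild-type pools. In that list Uncx stood at -0.998 (SE 0.124, adjusted p = 0.116 in limma), the smallest adjusted p of all genes. The range of the erythroid list, 0.003 to 0.26 in the mutant pools and -0.16 to -0.01 in the wild-type pools, did not overlap between groups. Of the 5 other erythroid lists only that of heme synthesis and iron had its mutant pools above its wild-type pools, at 0.01 to 0.07 against -0.08 to -0.01. The lists of other globins, red cell membrane and cytoplasm, transcription factors and signalling overlapped, as did all 7 marker lists. The part of these cell types in the erythroid values was not tested, and with ratios no marker can be called absent.

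**Figure D4:**
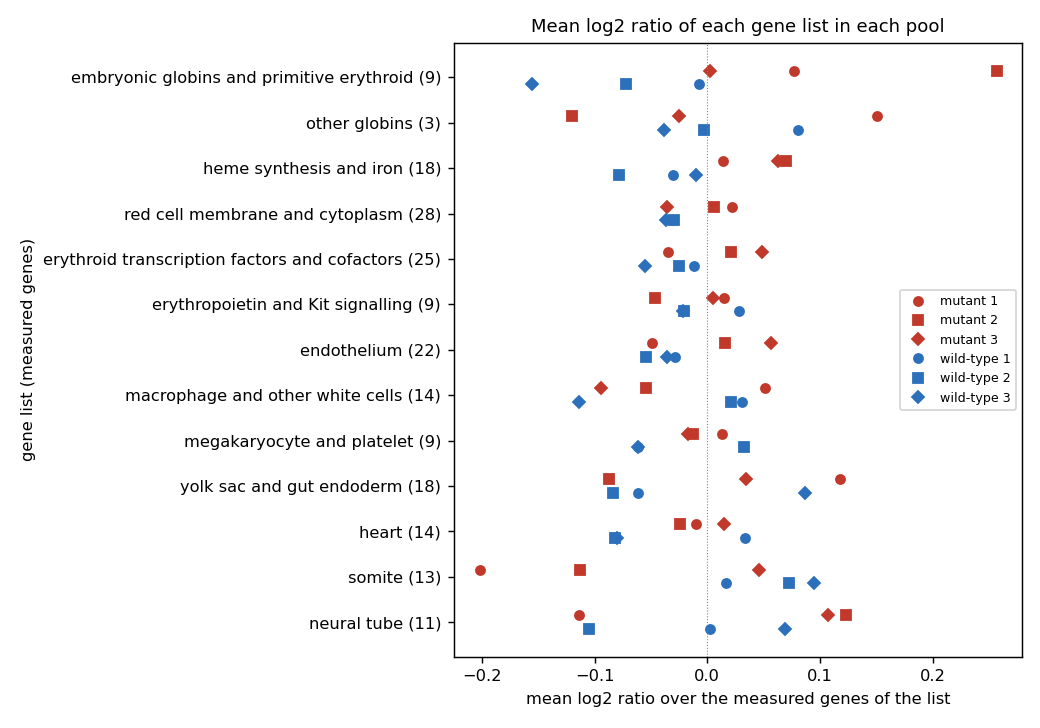
Mean log2 ratio of each gene list (rows, with the number of measured genes) in each pool, mutant in red and wild-type in blue, with 1 marker shape per replicate number. In the top row, the 9 erythroid genes, mutant pool 2 lies at 0.26 and wild-type pool 3 at -0.16. The row of heme synthesis and iron genes also has its mutant pools above its wild-type pools, while the other 4 erythroid lists and the 7 marker lists overlap.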

How the data were processed

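RNA of 3 Dll3 mutant and 3 wild-type pools was measured, 1 array each. The authors deposited linear ratios to a reference of each probe set, with 3 decimals. This unit was read from the values. Per the submitters' processing notes RMA and MAS5 were among the tools; their versions, roles and the scaling of the arrays are not stated in the sources used. The 64 control probe sets were left out. Values were log2 transformed without a pseudocount, and 22626 probe sets, and 12393 genes as the mean of their probe sets, were fitted with limma 3.58.1 (R 4.3.3; lmFit and eBayes without trend, genotype only, two-sided) with Benjamini-Hochberg adjustment over the whole table at 0.05. Symbols came from the platform annotation (20380 probe sets with 1 symbol, 691 with several and 1555 with none), updated through gene identifiers for 20351.

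The members and lists were chosen with earlier results of these data known. Named from each other erythroid list were the 3 genes of smallest p and the highest and lowest, and from each marker list the gene of largest difference. Precision is limited by having 6 arrays; over genes, the SE of a log2 difference had a median of 0.087. P-values rest on the spread between pools, which the series design calls biological replicates. In eBayes the variance of each row is drawn towards a value shared over all rows. The code was tested on simulated data. Figures used matplotlib 3.10.9.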

Additional observations from a re-analysis of the deposited data

How the results depend on the processing

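Ratios keep no signal over background, so rows with a median below 1 were removed in place of a filter on dim probe sets. Over 18 alternatives no erythroid gene or probe set passed the adjusted threshold. The log2 differences themselves could not or did not move in 5 of these (replicate block, trend, robust fit with a trend, adjusted p under 0.1, and removal of rows with a low median). In the other 13, Hba-x, Hbb-bh1, Slc4a1, Hemgn, Alas2 and Klf1 were higher in the mutant pools. The median of the 9 genes was 0.23. It was 0.16 to 0.27 with each pool left out, and 0.0327 with the sex score as a covariate, where the values of Hbb-y (-0.0726), Gata1 (-0.0954), the Hbb-y probe sets 1436717_x_at (-0.0144), 1436823_x_at (-0.0257) and 1450621_a_at (-0.178) and the Slc4a1 probe set 1431743_a_at (-0.13) turned negative. That Slc4a1 probe set was at -0.0155 with array weights. With each pool left out, Gata1 ran from -0.0398 to 0.112, Epor from -0.0746 to 0.0136, probe set 1436717_x_at from -0.0465 to 0.111 and 1431743_a_at from -0.038 to 0.149. The causes were not tested.

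Over the whole table the count past the threshold was 0 probe sets and 0 genes in limma. At an unadjusted p under 0.05 there were 595 of 22626 probe sets and 331 of 12393 genes. The count past the threshold was 1 probe set and 1 gene (Uncx) with the replicate number as a block and with array weights, 2 probe sets (Uncx and Hnrnpl) and 1 gene with a robust fit with a trend, 0 probe sets and 1 gene with the trend, and 0 to 1 with each pool left out (Xist without wild-type pool 1). The replicate numbers were not taken as pairs. Deviations of same-numbered pools correlated at 0.368, -0.025 and 0.37 over all probe sets, and those of numbers 1 and 3 were the largest of any mutant and wild-type pool. Mutant pool 2 correlated best with wild-type pool 3 (0.147). These values do not settle whether the numbers mark pairs. The block changed no call of an erythroid gene (median 0.23). The counts of the heme and other erythroid lists under each setting were added after seeing the data: 13 to 16 of 18 heme genes and 45 to 57 of the other erythroid genes were higher. Over these settings 49.3% to 54.4% of all genes were higher. The lowest count of other erythroid genes, 45 of 83, came with both pools numbered 3 left out, against 51.7% of all genes.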
